A study of Mus musculus with 12 samples.

Results

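The 10 ligand genes of the Wnt family, Wnt2, Wnt4, Wnt5a, Wnt5b, Wnt6, Wnt7b, Wnt9a, Wnt10a, Wnt10b and Wnt11, were followed in C57MG cells treated with R-spondin2 (Rspo2), Wnt3a or both. The members were every probe other than a control whose gene name in the scanner files is one of these symbols, which gave 13 probes of 10 genes among 41174 probes and 22407 gene symbols of the array. Wnt5b, Wnt6 and Wnt9a had a pair of probes each, and the others had 1. C57MG is an established line of mouse mammary epithelial cells. The cells were moved from growth medium to plain DMEM and treated for 24 h with 100 ng/ml recombinant human Rspo2, 100 ng/ml recombinant mouse Wnt3a, both at those doses, or bovine serum albumin (BSA), the carrier protein, as the control. Each of the 4 groups had 3 biological replicates, so 12 arrays were hybridized in a single color. All results are therefore mRNA levels of 1 cell line at 1 time point, and no ligand protein was measured.

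Wnt ligands are secreted glycoproteins that need a lipid, added by Porcn, and a carrier, Wls, to leave the cell. Outside, they bind Frizzled receptors. Together with Lrp5 or Lrp6 this stabilizes β-catenin, which acts with Tcf/Lef factors on target genes, whereas other Wnts act mainly through receptors such as Ror2 and Ryk, without β-catenin. R-spondins keep Frizzled and Lrp proteins at the cell surface and so need a Wnt to act on. The added Wnt3a is of the β-catenin kind. In the mammary gland, Wnt4 is known as a signal made under progesterone that drives side branching, Wnt5a as a ligand that restrains growth, Wnt6 and Wnt10b as ligands of early gland development, and Wnt2, Wnt5b and Wnt7b as genes expressed during ductal growth.

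Signals are given as a percent of the 75th percentile of all probes on the same array, so that 100% is a fairly bright probe. They compare arrays for 1 probe and not 1 probe with another. A probe was tested when it was well above background, by the flag of the scanner software, on all 3 arrays of at least 1 group. In the tests (limma, with Benjamini-Hochberg adjustment over all 22751 probes tested) a probe passed at an adjusted p under 0.05 and was called changed when it also moved at least 2-fold. The 75th percentile itself lay between 773.9 and 1146 intensity units, and 51.28% to 64.17% of all probes were well above background on an array. BSA replicate 1 (64.17%) and replicate 1 of the combination (61.75%) had the largest shares.

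The arrays lay on 3 slides, as the barcodes in the file headers show. All BSA arrays shared slide 1 with Rspo2 replicate 1. The remaining Rspo2 arrays (replicates 2 and 3) and Wnt3a replicates 1 and 2 made up slide 2, and Wnt3a replicate 3 was on slide 3 beside the whole combination group. BSA and the combination thus never shared a slide. A fit with slide as a term links them through the other groups. Its values are given beside the ligand changes that passed and those of Wnt5a and Wnt6 with both proteins. For the other genes, they are given beside the change with both proteins against BSA by the brightest probe.

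Of the ligand genes, 7 were detected in C57MG cells. Over the 12 arrays, the probes of Wnt4 and Wnt5a were well above background on 12, as were probe A_51_P137991 of Wnt5b, probe A_51_P482571 of Wnt6 and probe A_51_P375453 of Wnt9a. The Wnt7b and Wnt11 probes were well above background on 11 arrays each, with BSA replicate 2 as the exception for both. The other probes of the pairs were dimmer: A_52_P85805 of Wnt5b passed the flag on 7 arrays and A_52_P618971 of Wnt9a on 6. These 9 probes of 7 genes were tested. The probes of Wnt2, Wnt10a and Wnt10b and probe A_52_P415155 of Wnt6 were not well above background on any of the 12 arrays, and they were not tested.

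**Figure D1:**
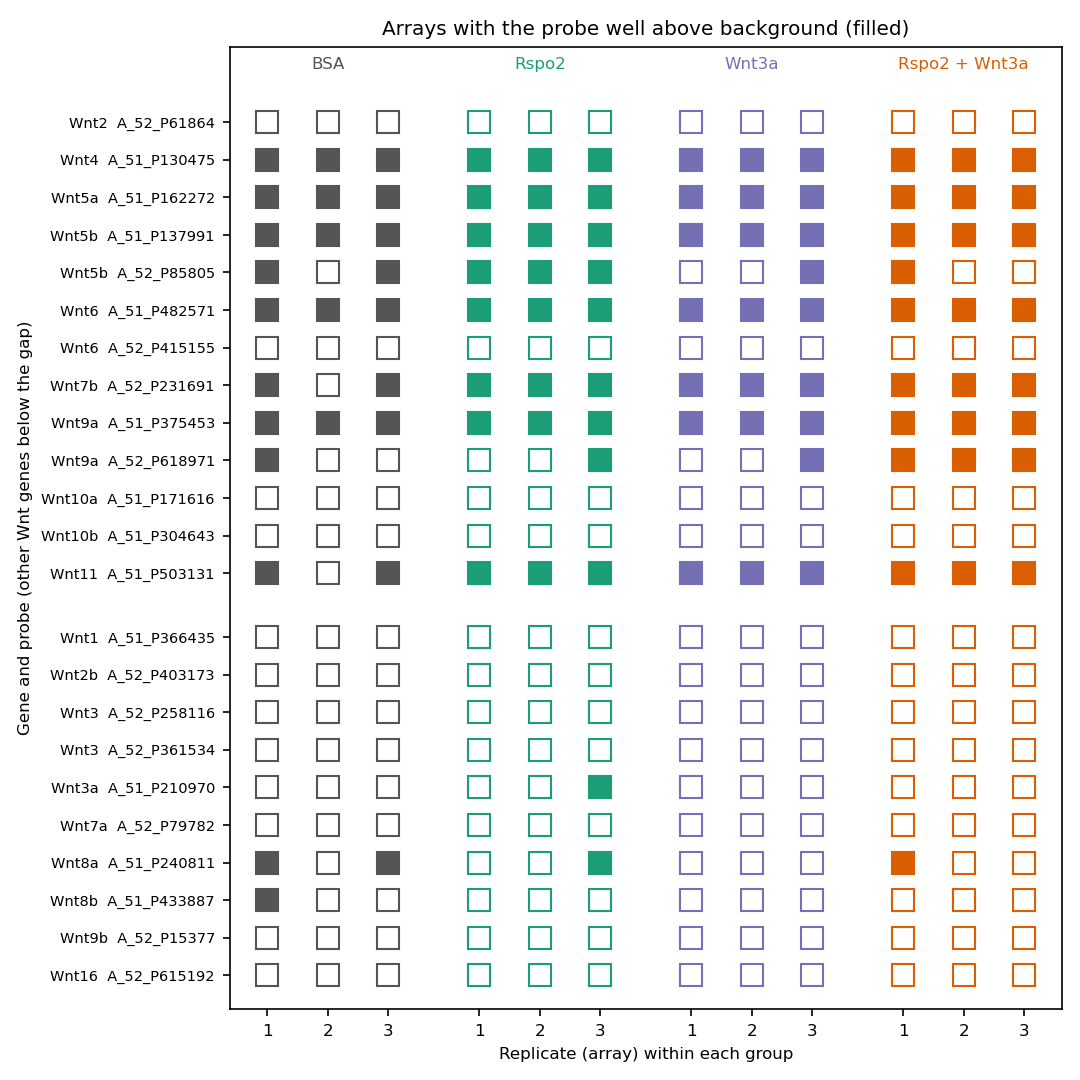
Each square is 1 array (columns, grouped by treatment, with the replicate number on the x axis) for 1 probe (rows), filled where the probe was well above background. The 13 probes of the 10 ligand genes are above the gap and the 10 probes of 9 other Wnt genes below it; 9 of the former and none of the latter were filled in all 3 arrays of a group.

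Wnt9a was the ligand that rose. With both proteins its mRNA was 3.07-fold the BSA level by probe A_51_P375453, and it was 2.03-fold the level with Wnt3a alone. Wnt4 fell with both proteins, to 0.567 of the BSA level. Neither gene passed the test with Rspo2 alone or with Wnt3a alone. No probe of Wnt5a, Wnt5b, Wnt6, Wnt7b or Wnt11 passed in any comparison. In bulk RNA, more cells that express a gene and more mRNA per cell cannot be told apart.

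Because Tcf/Lef factors act on DNA, the stretches before the RefSeq starts of Wnt9a and Wnt4, the genes that passed the test, are shown (build GRCm38.p6, plus strand), in lower case throughout since neither holds the letters CTTTGA or their reverse complement TCAAAG, the core of the Tcf/Lef motif. The first is chr11:59306680-59306848 and ends at the base before the Wnt9a gene (chr11:59306849-59333552). The second is chr4:137277385-137277634 and ends at the base before the Wnt4 gene (chr4:137277635-137299501).
Wnt9a: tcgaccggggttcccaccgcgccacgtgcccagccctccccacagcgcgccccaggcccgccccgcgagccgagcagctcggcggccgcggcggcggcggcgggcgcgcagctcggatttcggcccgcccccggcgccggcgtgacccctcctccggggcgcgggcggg
Wnt4: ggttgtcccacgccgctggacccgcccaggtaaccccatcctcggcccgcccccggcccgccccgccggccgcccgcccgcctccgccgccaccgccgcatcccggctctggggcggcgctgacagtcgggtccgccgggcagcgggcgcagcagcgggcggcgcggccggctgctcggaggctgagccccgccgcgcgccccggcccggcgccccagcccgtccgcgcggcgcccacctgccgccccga

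The RefSeq windows of 300 bases, 250 before and 50 after each start, gave 10 windows for 7 of the 10 genes. No window was matched for Wnt5a, Wnt7b or Wnt10a. The motif, read on both strands, was in 1 window of Wnt11 and 1 of Wnt5b, against 16% of all 32851 windows. Both stretches follow, 5′ to 3′ along the gene with the motif in capitals and 10 bases on each side. That of Wnt11 (chr7:98835052-98835077, plus strand) has the motif begin 50 bases before the start of its window's transcript, and that of Wnt5b (chr6:119449442-119449467, minus strand) 71 bases before, at a start inside the gene. A match is a description of the letters, not a shown binding site, and no match speaks only of these windows.
Wnt11: cgtgggcggaTCAAAGcgacggtccg
Wnt5b: gtaagtctctCTTTGAtctgctccct

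Wnt9a encodes a ligand known from joint and skeletal development. By probe A_51_P375453 the signal was 24.1%, 32.7% and 47.5% on the BSA arrays, 36.4%, 43.5% and 40.4% with Rspo2, 62.7%, 49.2% and 42.0% with Wnt3a, and 99.8%, 93.0% and 117% with both. All 3 arrays of the combination were above the other 9, while Rspo2 and Wnt3a each overlapped with BSA. In order, the group means were 34.7% ± 11.9 with BSA, 40.1% ± 3.58 with Rspo2, 51.3% ± 10.5 with Wnt3a and 103% ± 12.1 with both (SD, n = 3). The lower neighbors in that order, BSA with Rspo2 and Rspo2 with Wnt3a, overlapped. Against BSA, the log2 change with both proteins was 1.62 (SE 0.22, 95% confidence interval 1.13 to 2.11, limma adjusted p = 0.00034).

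Against Wnt3a alone, the log2 change of Wnt9a was 1.02 (SE 0.22, interval 0.53 to 1.51, limma adjusted p = 0.0271). With Wnt3a alone it was 0.60 against BSA (interval 0.11 to 1.09, adjusted p = 0.0628), and with Rspo2 alone it was 0.26 (interval -0.23 to 0.75, adjusted p = 0.437), both in limma. The interaction (the change with both proteins minus the sum of the single changes) was 0.76 (SE 0.31, limma adjusted p = 0.138) and did not pass. In the fit with a slide term, the log2 change of Wnt9a with both was 1.82 against BSA (SE 0.52, limma adjusted p = 0.127) and 1.29 against Wnt3a (SE 0.31, adjusted p = 0.113). On slide 3 alone, the 3 combination arrays were 1.29 above the 1 Wnt3a array. The change of Wnt9a against BSA passed whichever array was left out, from 1.38 without BSA replicate 1 to 1.87 without BSA replicate 3. The change of Wnt9a against Wnt3a did not pass in limma without Wnt3a replicate 2 (adjusted p = 0.102), without combination replicate 1 (0.0655), replicate 2 (0.0688) or replicate 3 (0.0972), and without Wnt3a replicate 3 it passed (0.0481) at a log2 change of 0.89, under 2-fold. The change of Wnt9a with Wnt3a alone passed in limma without BSA replicate 3 (0.85, adjusted p = 0.0134) or without Wnt3a replicate 3 (0.73, adjusted p = 0.0455).

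The second Wnt9a probe, A_52_P618971, lies 2185 bases from the first by the array's own coordinates, and it was well above background on 6 of the 12 arrays. Its signal was 6.36%, 2.75% and 1.88% with BSA, 5.44%, 2.56% and 4.16% with Rspo2, 2.18%, 2.86% and 4.32% with Wnt3a, and 11.7%, 10.8% and 6.30% with both. The flag for a signal well above background was set in 3 of 3 combination arrays and in 1 array of each other group. It entered the tests only through the combination, the group where it was high, so its difference from the other groups is no independent support for a rise, and its values were set against arrays of which most did not measure it. The lowest combination array, replicate 3, lay just below BSA replicate 1, so these groups overlapped. The log2 change of Wnt9a by this probe was 1.53 against BSA (SE 0.45, interval 0.54 to 2.53, limma adjusted p = 0.0199) and 1.63 against Wnt3a (SE 0.45, adjusted p = 0.075). With Wnt3a alone the 2 probes of Wnt9a gave 0.60 and -0.10 against BSA, with intervals that overlapped.

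The call by Wnt9a probe A_52_P618971 was less stable. In the slide fit its log2 change against BSA was 1.48 (limma adjusted p = 0.539), and on slide 3 it was 1.10 above the Wnt3a array. Under another background correction (normexp) it was 0.28 (limma adjusted p = 0.827). The change of Wnt9a by this probe did not pass in limma without BSA replicate 2 (adjusted p = 0.0615) or 3 (0.0784), and without combination replicate 1 (0.0699) or 2 (0.0652). Its change against Wnt3a passed in limma without BSA replicate 1 (adjusted p = 0.0306) or Wnt3a replicate 3 (adjusted p = 0.0421).

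**Figure D2:**
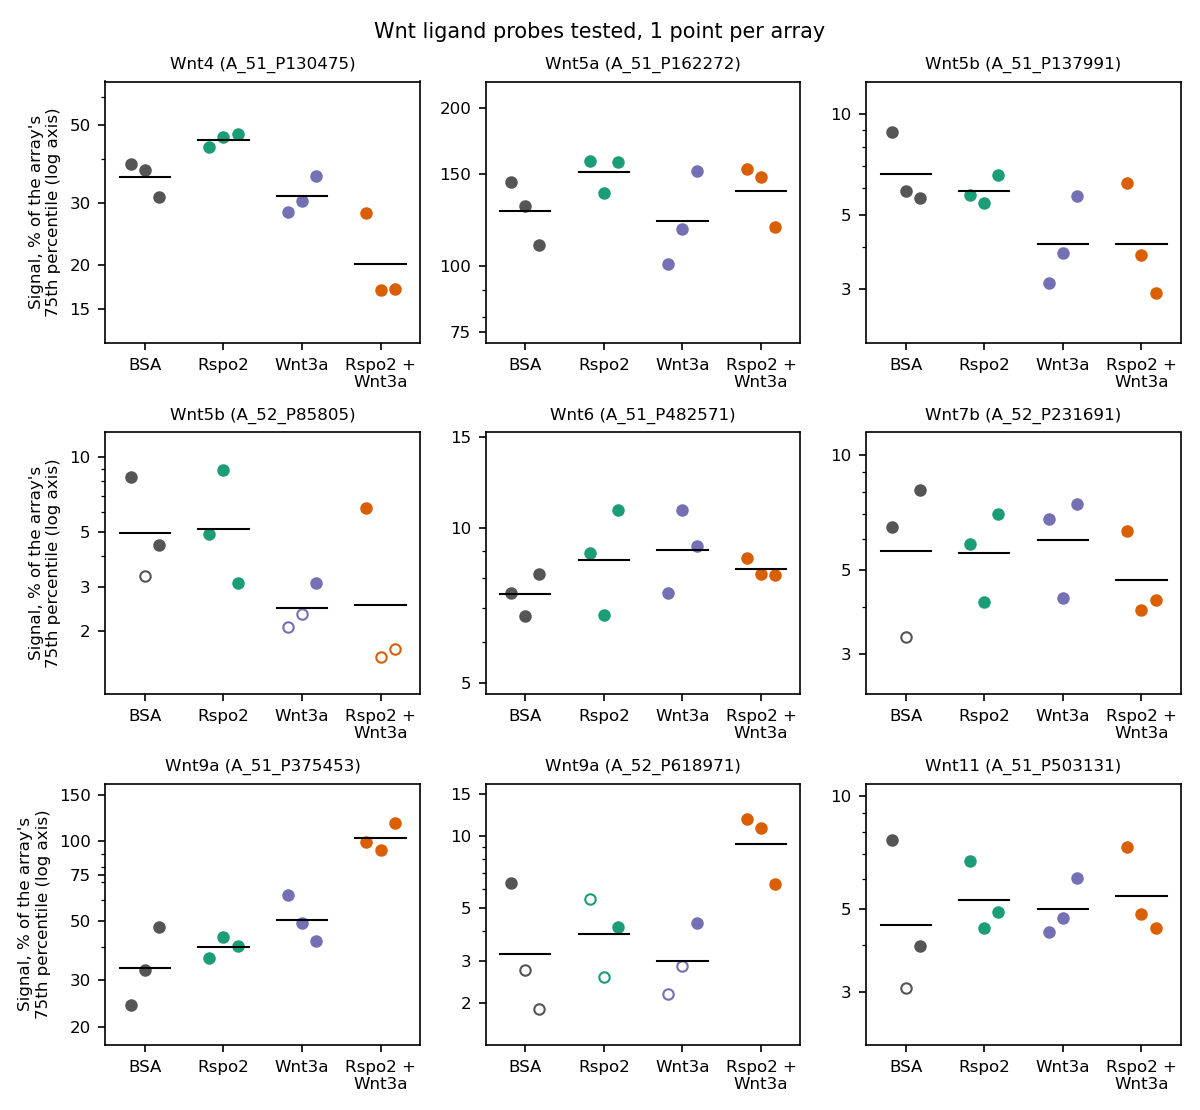
Signal of the 9 tested probes (y axis, percent of the 75th percentile of the array, log axis, with a scale of its own in each panel) by treatment (x axis). Each point is 1 array, open where the probe was not well above background, and the line is the mean on the log scale; for Wnt9a (A_51_P375453) the 3 combination arrays lie between 93.0% and 117%, above all others, and for Wnt4 between 17.0% and 28.2%, below all others.

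By a rule that took the 3 genes with the highest Pearson correlation over the 12 arrays among 18708 probes well above background on all of them, the pattern of Wnt9a was most like those of Tcf7 (r = 0.96), which encodes a factor of the Tcf/Lef family, Msn (r = 0.96), which encodes moesin, a linker of the membrane to actin, and Myadm (r = 0.95). The points share the treatment groups and slides, and the values are descriptions.

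Wnt4, unlike Wnt9a, was lowest with both proteins. Its signal (probe A_51_P130475) was 38.9%, 37.2% and 31.2% with BSA, 43.3%, 46.2% and 47.1% with Rspo2, 28.3%, 30.5% and 35.9% with Wnt3a, and 28.2%, 17.0% and 17.1% with both. The combination lay below every other array, though its replicate 1 was only just below the lowest Wnt3a array. The Rspo2 arrays lay above every BSA array without passing the test. From low to high, the means were 20.8% ± 6.45 with both, 31.6% ± 3.95 with Wnt3a, 35.8% ± 4.04 with BSA and 45.5% ± 1.97 with Rspo2 (SD, n = 3), and of neighbors in that order only Wnt3a and BSA overlapped.

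Against BSA, the log2 change of Wnt4 with both proteins was -0.82 (SE 0.18, interval -1.22 to -0.42, limma adjusted p = 0.00514), which passed but was under 2-fold. It was -0.64 against Wnt3a alone (SE 0.18, interval -1.04 to -0.24, adjusted p = 0.0848), -0.18 with Wnt3a alone (interval -0.58 to 0.22, adjusted p = 0.481) and 0.35 with Rspo2 alone (interval -0.05 to 0.76, adjusted p = 0.191), all in limma. The interaction passed for Wnt4, at -0.99 (SE 0.26, interval -1.56 to -0.42, limma adjusted p = 0.0412). Rspo2 thus went with a value of 0.35 in the absence of Wnt3a and of -0.64 in its presence. The difference between these values passed in the fit without slide only. Wnt4 was 1 of 9 ligand probes to pass in the interaction, beside 8.9% of all probes.

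In the fit with a slide term, the log2 change of Wnt4 with both against BSA was -1.22 (SE 0.44, limma adjusted p = 0.22) and the interaction was -1.12 (adjusted p = 0.228). On slide 3, the combination arrays less the Wnt3a array gave a log2 difference of -0.83. The fall of Wnt4 against BSA passed without any 1 array, and it was -1.06 without combination replicate 1 (limma adjusted p = 0.000266). Without that array the difference from Wnt3a alone also passed (-0.88, limma adjusted p = 0.00446). The interaction of Wnt4 remained past the threshold without Rspo2 replicate 1, Wnt3a replicate 1 or combination replicate 1, with limma adjusted p = 0.0438, 0.0496 and 0.00454. Leaving out any of the other arrays left the interaction short of the threshold, with limma adjusted p from 0.0595 without Wnt3a replicate 3 to 0.0975 without combination replicate 3. These arrays were BSA replicates 1, 2 and 3, Rspo2 replicates 2 and 3, Wnt3a replicates 2 and 3, and combination replicates 2 and 3.

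The ligands best known for signaling without β-catenin are Wnt5a, Wnt5b and Wnt11, and none of their probes passed. Wnt5a (probe A_51_P162272) gave 145%, 130% and 110% with BSA, 159%, 138% and 158% with Rspo2, 101%, 118% and 152% with Wnt3a, and 153%, 148% and 119% with both. All groups overlapped with BSA. For Wnt5a against BSA without slide, the limma intervals of the log2 change were -0.11 to 0.60 (Rspo2), -0.42 to 0.29 (Wnt3a) and -0.23 to 0.48 (both), so a 2-fold change in either direction lay outside each of them. With a slide term the change of Wnt5a with both was -0.25 (SE 0.32, against 0.16 without slide), so this is said of the fit without slide only. The interval of Wnt5a against Wnt3a alone, without slide, was -0.16 to 0.54.

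Both probes of Wnt5b were tested, and they lie 7308 bases apart. Probe A_51_P137991 gave 8.87%, 5.89% and 5.62% with BSA, 5.73%, 5.44% and 6.60% with Rspo2, 3.13%, 3.85% and 5.70% with Wnt3a, and 6.22%, 3.79% and 2.92% with both. In each group given Wnt3a, 2 of 3 arrays were below all BSA arrays and the other was among them. The log2 change of Wnt5b was -0.70 with Wnt3a (interval -1.34 to -0.06, limma adjusted p = 0.0897) and -0.70 with both (interval -1.34 to -0.06, adjusted p = 0.0794), and it was 0.00 between these groups (interval -0.64 to 0.64). Probe A_52_P85805 gave -1.01 with Wnt3a (interval -2.21 to 0.20, limma adjusted p = 0.185) and -0.96 with both (interval -2.17 to 0.24, adjusted p = 0.189), with 1 of 3 arrays well above background in each group. It entered the tests only through Rspo2, where all 3 arrays were well above background, as were 2 of 3 with BSA, so its values are a description. With Rspo2 alone, the Wnt5b probes gave -0.17 (interval -0.81 to 0.47) and 0.05 (interval -1.15 to 1.26). Without combination replicate 1, the change of Wnt5b with both proteins by A_51_P137991 passed in limma, at -0.999 (adjusted p = 0.0182). For A_52_P85805 no combination array well above background was then left. Without Wnt3a replicate 3, that with Wnt3a passed by A_51_P137991, at -0.94 (limma adjusted p = 0.0382). It also passed at its value of -0.70 without combination replicate 1 (limma adjusted p = 0.0462).

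Wnt11 (probe A_51_P503131) gave 7.63%, 3.07% and 3.98% with BSA, 6.72%, 4.46% and 4.90% with Rspo2, 4.35%, 4.74% and 6.06% with Wnt3a, and 7.32%, 4.86% and 4.44% with both. The groups overlapped in every comparison. The intervals of its log2 change against BSA ran from -0.47 to 0.91, from -0.55 to 0.83 and from -0.44 to 0.95 in the same order.

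Wnt6 and Wnt7b, ligands that can act through β-catenin in other settings, did not pass either. Wnt6 by probe A_51_P482571 gave 7.47%, 6.74% and 8.14% with BSA, 8.93%, 6.78% and 10.8% with Rspo2, 7.46%, 10.8% and 9.22% with Wnt3a, and 8.74%, 8.15% and 8.10% with both. In the fit without slide, the limma intervals of its log2 change against BSA, -0.15 to 0.60, -0.09 to 0.66 and -0.21 to 0.54, left out a 2-fold change. With a slide term the change of Wnt6 with both was 0.19 (SE 0.44, against 0.17 without slide), so this is said of the fit without slide only. Under quantile normalization the change of Wnt6 with Wnt3a was 0.58 and passed in limma (adjusted p = 0.0302). Wnt7b (probe A_52_P231691) gave 6.46%, 3.34% and 8.09% with BSA, 5.83%, 4.11% and 7.01% with Rspo2, 6.79%, 4.21% and 7.43% with Wnt3a, and 6.33%, 3.91% and 4.17% with both. BSA alone spanned most of the range of Wnt7b, and its intervals were wide, from -0.78 to 0.74 with Rspo2, from -0.67 to 0.85 with Wnt3a and from -1.01 to 0.51 with both.

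For Wnt2, Wnt10a and Wnt10b there was no measured level. Their signals lay between 0.395% and 1.49%, between 0.399% and 0.945%, and between 0.416% and 1.71%, none of them well above background, and on 10, 12 and 9 of the 12 arrays the scanner software had put a substitute value in place of the signal. The second Wnt6 probe, A_52_P415155, which lies 100 bases from the first, was the same, with 0.405% to 2.19% and a substitute value on 10 arrays. The 2 probes of Wnt6 thus differed in detection, on 12 arrays and on none.

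Counted over the 9 tested probes, 0 were called with Rspo2 against BSA, where 0.721% of all probes tested were called, and 0 with Wnt3a, where 2.52% were. With both proteins 2 were called, the 2 Wnt9a probes, where 5.08% of all were. Of these, A_52_P618971 was tested only because it was above background in the combination, so its call is not counted as support. Between the combination and Wnt3a alone 1 was called, where 0.747% were, and for the interaction 0, where 1.93% were. Without the 2-fold requirement 0, 0, 3, 1 and 1 passed in limma, and the shares of all probes were 16.8%, 31.5%, 39.2%, 4.27% and 8.9%. At an unadjusted p under 0.05 in limma the counts were 0, 2, 4, 3 and 2 of the 9 probes, beside 35%, 43%, 47.9%, 18.4% and 29.3% of all. The treated arrays did not overlap with BSA for 1, 1 and 2 of the 9 probes, against 43.5%, 45.5% and 54% of all probes, and the combination did not overlap with Wnt3a for 3, against 21.4%. Probe A_52_P618971 is 1 of the 3 that passed with both proteins and 1 of the 3 that did not overlap with Wnt3a. It is also in the unadjusted counts of 4 and 3, and it is no support in any of these counts. The 1 probe without overlap between Wnt3a and BSA is A_52_P85805 of Wnt5b, tested only through Rspo2. The median log2 change of the 9 probes was 0.22, -0.06, 0.13, 0.04 and -0.06 in the 5 comparisons, beside 0.01, 0.00, 0.04, 0.00 and 0.00 over all. The comparisons with BSA share their control arrays.

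**Figure D3:**
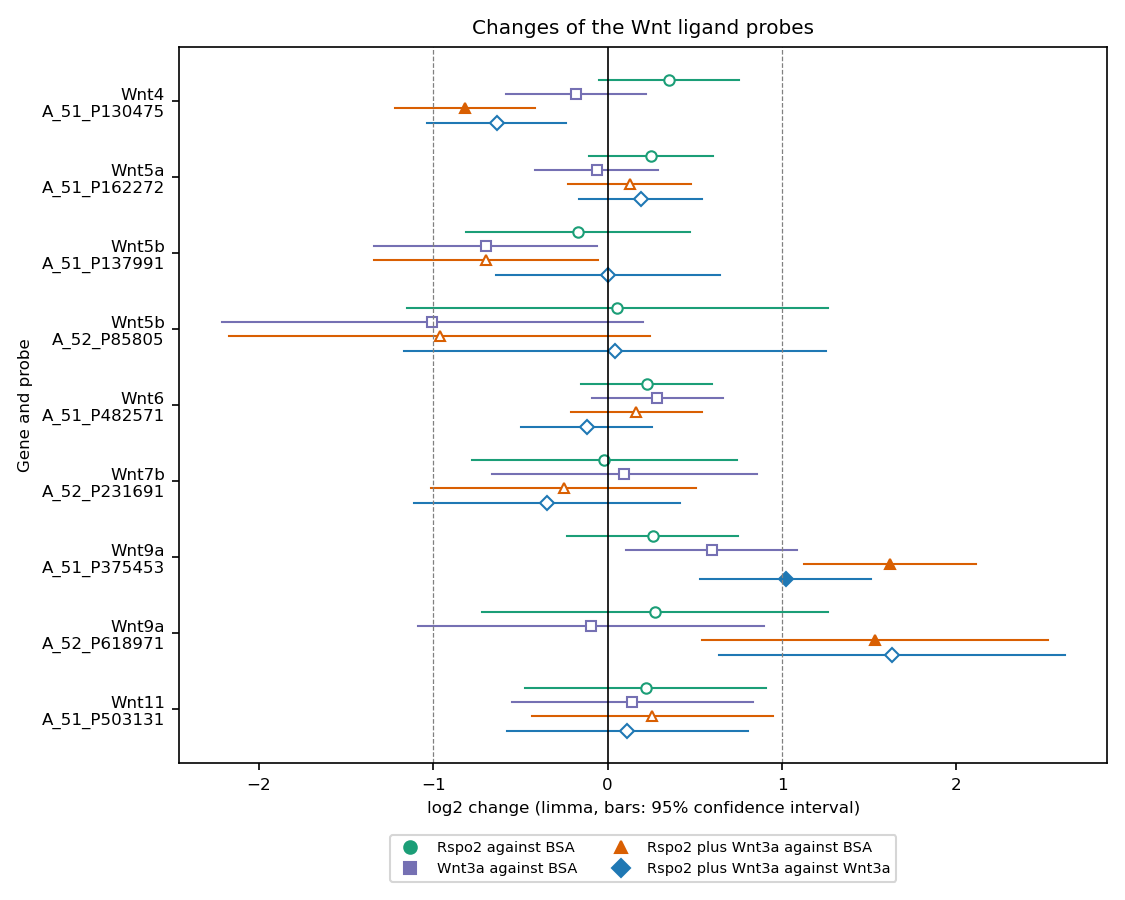
The log2 change (x axis, with 95% confidence intervals from limma) of the 9 probes of 7 ligand genes (y axis) in 4 comparisons, with filled symbols at an adjusted p under 0.05 and dashed lines at 2-fold. The filled symbols are the combination against BSA for Wnt4 (-0.82) and both Wnt9a probes (1.62 and 1.53), and the combination against Wnt3a for 1 Wnt9a probe (1.02).

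The other Wnt genes of the array, Wnt1, Wnt2b, Wnt3, Wnt3a, Wnt7a, Wnt8a, Wnt8b, Wnt9b and Wnt16, had 10 probes, of which none was tested. The Wnt8a probe was well above background on 4 arrays, those of Wnt3a and Wnt8b on 1 each, and the others on none. The endogenous Wnt3a gene, which lies beside Wnt9a on chromosome 11, was thus not measured above background in any array given Wnt3a protein.

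Axin2, a target of β-catenin signaling that served as a check of the treatments, was well above background on the 3 arrays of the combination, at 22.7%, 30.1% and 34.5%, and on no other. Relative to BSA its level with both proteins was at least 9.39-fold higher, and relative to Wnt3a at least 11.8-fold higher, with limma adjusted p = 1.14e-05 and 0.000372. These bounds were set against the lowest signals well above background on each array. Axin2 entered the tests only through the combination, the group where it was high, and its adjusted p compares that group with arrays that did not measure it, so it is given as a description. In the slide fit the change of Axin2 against BSA had a limma adjusted p = 0.0342.

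The 5 genes of Wnt lipidation and secretion were all tested. By the brightest probe of each, 1, 2 and 2 of them rose against BSA with Rspo2, Wnt3a and both, and none fell. Of all probes, 16.8%, 31.5% and 39.2% passed in either direction. Wls, the carrier of Wnt proteins through the secretory route, gave 1250%, 1140% and 1150% with BSA, 1280%, 1260% and 1250% with Rspo2, 1330%, 1430% and 1440% with Wnt3a, and 1980%, 1950% and 1910% with both. The combination was above every other array. The log2 change of Wls was 0.24 with Wnt3a (limma adjusted p = 0.0199), 0.72 with both (adjusted p = 2.66e-05) and 0.48 between these groups (adjusted p = 0.0024), and the interaction was 0.38 (adjusted p = 0.0364). In the fit with a slide term the change of Wls with both was 0.68 (limma adjusted p = 0.0717).

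Vps29, a subunit of the retromer that returns Wls from endosomes, rose with Rspo2 (0.41), Wnt3a (0.47) and both (0.42, limma adjusted p = 0.00346) by its brightest probe. In the slide fit that last change of Vps29 was 0.14 (limma adjusted p = 0.788). Its 4 tested probes disagreed with both proteins, from -0.90 (limma adjusted p = 0.00107) to 0.42. The acyltransferase Porcn had a change of 0.37 with both (limma adjusted p = 0.055), and Vps35, another retromer subunit, of 0.13 (adjusted p = 0.289).

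Notum, a secreted enzyme that removes the lipid from Wnts and so inactivates them, gave 17.7%, 13.1% and 10.9% with BSA, 12.7%, 12.7% and 11.6% with Rspo2, 14.2%, 13.5% and 13.8% with Wnt3a, and 29.7%, 27.9% and 28.7% with both. The combination lay above all other arrays. The Rspo2 and Wnt3a groups each overlapped with BSA, and the Wnt3a arrays lay above the Rspo2 arrays. The log2 change of Notum was 1.08 against BSA (limma adjusted p = 0.000244), 1.06 against Wnt3a (adjusted p = 0.00167) and 1.20 in the interaction (adjusted p = 0.00831). In the fit with a slide term the change of Notum against BSA was 1.15 (limma adjusted p = 0.158). Its list had 1 other gene, Trabd2b, which no probe carries under that symbol. Of 7 genes of secreted Wnt-binding proteins (Sfrp1, Sfrp2, Frzb, Sfrp4, Sfrp5, Wif1 and Cer1), none was tested, the most often detected being Sfrp2, on 4 arrays.

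Of 6 receptor genes other than Frizzled, 5 were tested. By the brightest probe of each, none passed with Rspo2 or Wnt3a alone, where 16.8% and 31.5% of all probes passed. With both, 2 of the 5 passed, where 39.2% of all probes did. Lrp5, the co-receptor of the β-catenin route, fell by 1.29 on the log2 scale (limma adjusted p = 0.00786). Its signal was 110%, 124% and 156% with BSA, 94.1%, 101% and 82.2% with Rspo2, 132%, 59.2% and 51.9% with Wnt3a, and 44.1%, 47.3% and 70.7% with both, and in the slide fit the change of Lrp5 was -0.48 (limma adjusted p = 0.801). Ryk, a receptor of Wnt5a, rose by 0.33 (limma adjusted p = 0.0182) and by 0.40 in its second probe (adjusted p = 0.00166). In the slide fit the first of these changes of Ryk was 0.53 (limma adjusted p = 0.297). In the fit without slide, Lrp6 (-0.42, adjusted p = 0.0652) and Ptk7 (-0.50, adjusted p = 0.235) did not pass.

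**Figure D4:**
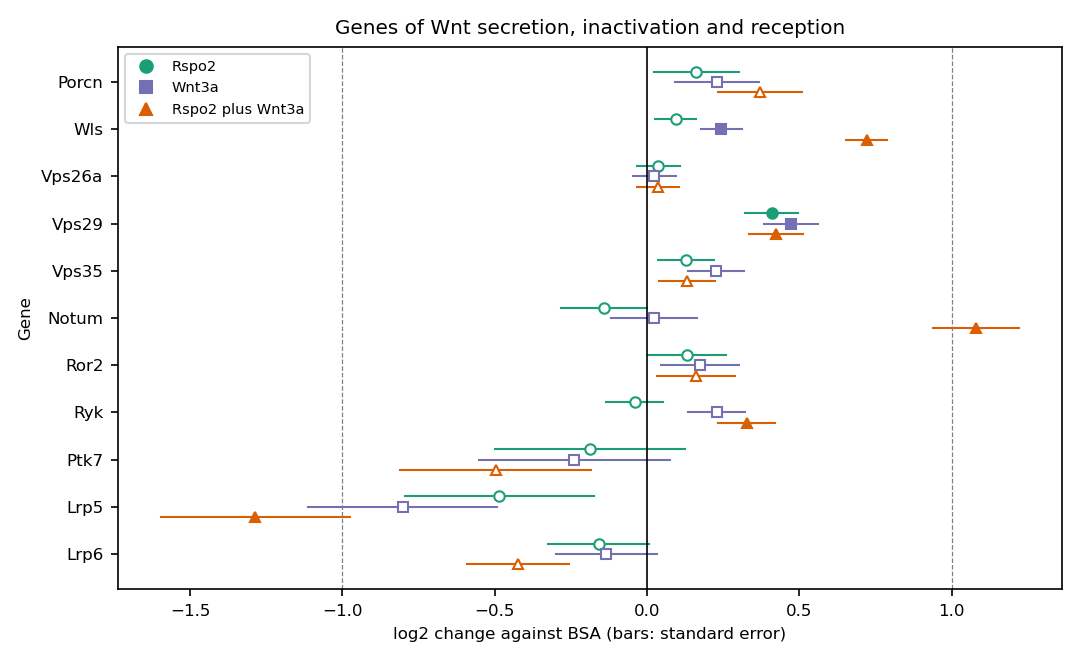
The log2 change against BSA (x axis, with standard errors) of the 11 tested genes of Wnt secretion, inactivation and reception (y axis), by the brightest tested probe of each, with filled symbols at a limma adjusted p under 0.05 and dashed lines at 2-fold. With both proteins Wls (0.72) and Notum (1.08) lie above their values with either protein alone, and Lrp5 (-1.29) lies below.

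The labelled cell type was checked against marker lists. Of 7 epithelial markers, Krt8 and Krt14 were well above background on 12 arrays and Krt5 on 10, while Krt18, Krt19 and Epcam were so on 3, 2 and 2 and Cdh1 on none. All 7 myoepithelial or mesenchymal markers (Acta2, Tagln, Myl9, Vim, Fn1, Cdh2 and Col1a1) were tested. The endothelial markers Kdr, Pecam1 and Tek were well above background on 0, 1 and 1 arrays and Cdh5 on 12, and the leukocyte markers Ptprc, Itgam and Cd3e on 1, 1 and 11. The 4 adipocyte markers were so on at most 4.

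With both proteins against BSA, 2 of the 7 myoepithelial or mesenchymal markers rose by their brightest probes, Acta2 by 0.78 (limma adjusted p = 7.26e-05) and Tagln by 0.95 (adjusted p = 6.24e-05), and none fell, where 39.2% of all probes passed in either direction. The other tested probes gave larger values, of up to 1.39 for Acta2 (limma adjusted p = 0.000126) and 1.84 for Tagln (adjusted p = 1.92e-05). Signals of different probes were summed only to compare arrays. The summed signal of the 7 markers ranged over 35600% to 36000% in the BSA group, 38200% to 39500% in the Rspo2 group, 40200% to 42100% in the Wnt3a group and 43800% to 46800% in the combination group, and with BSA the Acta2 (12500%) and Vim (12400%) probes gave most of it. Of the epithelial list, Krt14 rose by 1.24 and Krt8 fell by 1.15 on the log2 scale (limma adjusted p = 8.28e-06 and 0.000366), and its summed signal was 1020% to 1060% with BSA and 2250% to 2580% with both, mostly from Krt14. In the slide fit none of these 4 changes passed. The log2 changes there were 0.63 for Acta2, 0.85 for Tagln, 1.13 for Krt14 and -1.25 for Krt8, about as large as without slide. Their limma adjusted p-values were 0.16, 0.141, 0.0518 and 0.151 in that order. Of the endothelial list, only Cdh5 was tested. It fell by 0.41 with Rspo2, by 0.49 with Wnt3a and by 0.55 with both on the log2 scale (limma adjusted p = 0.0116, 0.00131 and 0.000259). In the slide fit the change of Cdh5 with both was -0.66 (limma adjusted p = 0.0957). The summed signal of the list, nearly all from Cdh5, was 243% to 260% with BSA and 163% to 175% with both. In the interaction 2 of 3 tested epithelial and 1 of 7 myoepithelial or mesenchymal markers passed, all with a positive value, beside 8.9% of all probes. By their brightest probes, these were Krt5 (1.63, limma adjusted p = 0.0075), Krt14 (0.52, adjusted p = 0.0439) and Col1a1 (0.71, adjusted p = 0.0182). Krt5 did not rise with both against BSA (0.22, limma adjusted p = 0.387). It fell with Rspo2 (-0.84, adjusted p = 0.0212) and Wnt3a (-0.57, adjusted p = 0.0405). Col1a1 likewise gave -0.07 with both (limma adjusted p = 0.62), -0.47 with Rspo2 (adjusted p = 0.0197) and -0.31 with Wnt3a (adjusted p = 0.0385). The part of these marker shifts in the changes of Wnt9a and Wnt4 was not tested.

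The changes of Wnt9a and Wnt4 kept their sign under all alternatives that gave a value. For Wnt9a by A_51_P375453 against BSA, the log2 change ran from 1.31 to 1.87 over 27 alternatives, and it passed in 25 of them. For Wnt4 against BSA it ran from -1.22 to -0.69 and passed in 23 of 27. The interaction of Wnt4 ran from -1.30 to -0.87 and passed in 10 of 24. With BSA replicate 1 and combination replicate 1 both left out, an alternative added after the data were seen, the change of Wnt9a against BSA was 1.40 and that of Wnt4 was -0.996 (limma adjusted p = 0.00331 and 0.00122).

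**Figure D5:**
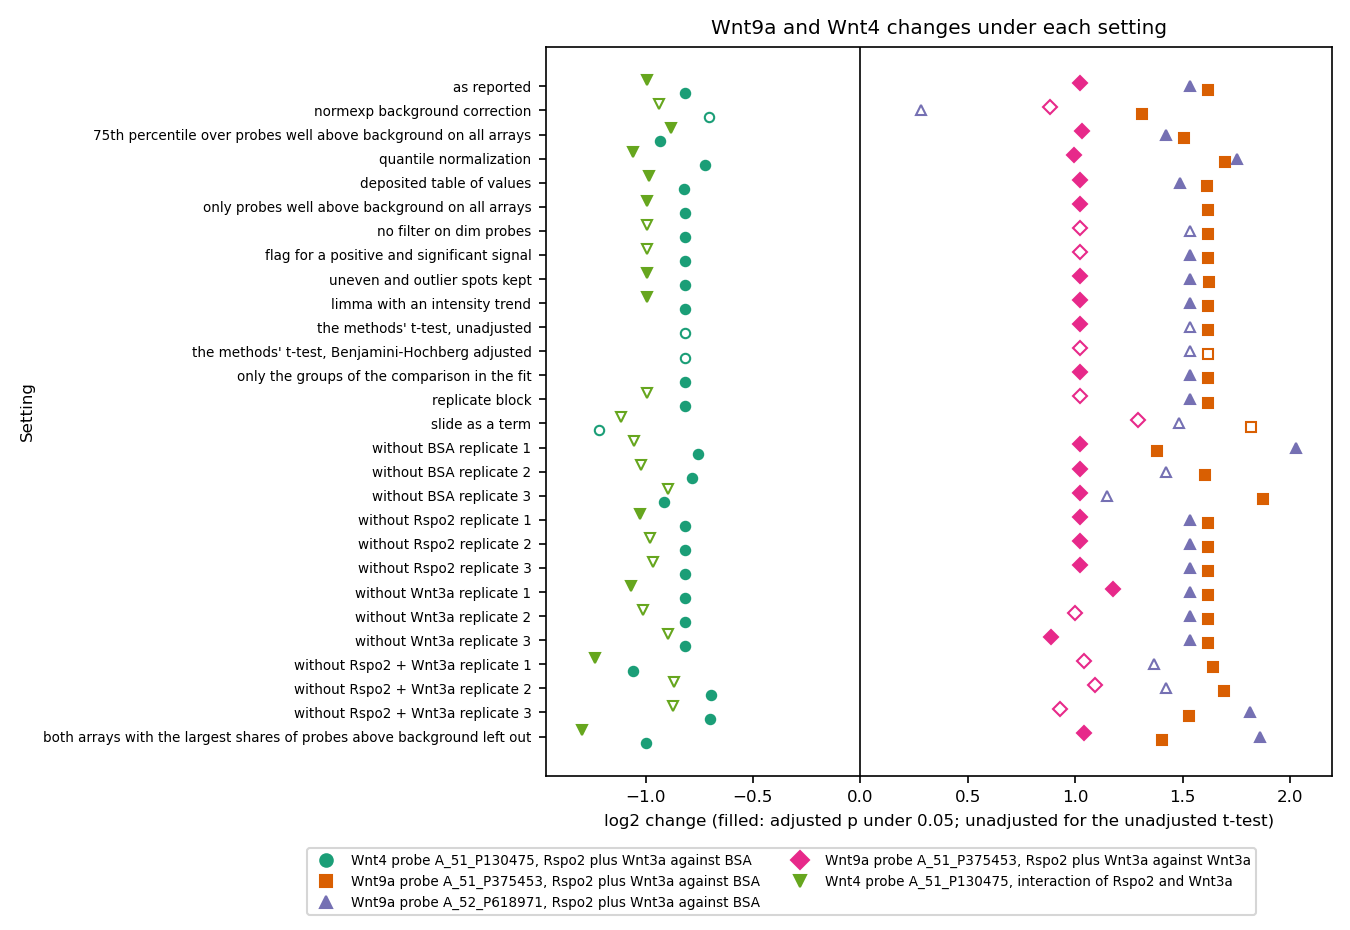
The log2 change (x axis) of Wnt9a and Wnt4 in 5 results, as reported and under each alternative setting (y axis), with filled symbols at an adjusted p under 0.05. The changes keep their sides of 0 throughout, the widest range being that of Wnt9a by A_52_P618971 (0.28 to 2.03).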

How the data were processed

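Total RNA of 3 wells per treatment was amplified, labeled with a single dye and hybridized to arrays of probes of 60 bases. The authors' scanner software (Agilent Feature Extraction 9.5.3.1, per the submitters' processing notes) made the deposited intensity values, which are background-subtracted and not scaled between arrays, with flags for each spot. The other deposited table holds ratio values, in which the authors set each signal relative to the array's 75th percentile on a linear scale. It was used as an alternative.

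Spots marked as uneven or as outliers were left out (83 to 179 per array), spots of a probe were averaged, and each array's log2 75th percentile was subtracted from the log2 values. Probes well above background (on at least 0.5 of the spots of a probe) on all 3 arrays of a group were tested: 22751 of 41174. All 12 arrays entered 1 limma fit (limma 3.58.1, R 4.3.3, data.table version 1.17.8, empirical Bayes, prior degrees of freedom 2.74) with no covariate, and p-values were adjusted over all tested probes (Benjamini-Hochberg). Calls needed an adjusted p under 0.05 and 2-fold. With 3 arrays a group, limma replaced the methods' t-test, which was run with 2-fold as an alternative. A permutation test was not used, since an exact one of 3 arrays against 3 cannot give a two-sided p under 0.1. Replicates are separate wells of 1 cell line. The fits were tested on simulated data. Precision is limited by the number of arrays and by signal over background.

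The ligands, the gene lists and the marker lists were chosen with earlier results of these data known. All ligand probes are reported. Of each other list at most the 4 genes with the largest absolute change with both proteins are named with values, by the brightest tested probe, beside counts of all. Of the marker genes, 1 is not reported here. Positions, promoters and symbols of genes other than the ligands are from RefSeq (GRCm38.p6). The build of the array's own probe coordinates is not given in the sources used here, so only distances between probes are given. Plots were drawn with matplotlib 3.10.9 in python 3.11.15.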

Additional observations from a re-analysis of the deposited data

Results flagged for a closer look

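In the fit without slide, the change of Wnt4 with Rspo2 differed between cells without and with Wnt3a, by the test of the difference itself. It was 1 of 9 ligand probes to pass this test, beside 8.9% of all probes. The interaction was -0.99 on the log2 scale (SE 0.26, interval -1.56 to -0.42, limma adjusted p = 0.0412), from a log2 change with Rspo2 of 0.35 against BSA (higher on 3 of 3 arrays than any BSA array) and of -0.64 against Wnt3a (lower on 3 of 3 arrays than any Wnt3a array). The change was 1.99-fold, under the 2-fold required for a call. The interaction of Wnt4 passed in 10 of 24 alternatives. Over these the adjusted p of Wnt4 in limma ran from 0.00454 to 0.688, and with slide as a term it was 0.228. The markers Krt5, Krt14 and Col1a1 also passed in the interaction, and their part in the value of Wnt4 was not tested.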

How the results depend on the processing

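No ligand change that passed turned its sign under any of the alternatives run. With Rspo2 or Wnt3a alone against BSA, the count of called ligand probes was 0 under each of them. The 2 ligand probes called with both proteins against BSA became 1 under the normexp background correction, when probes had to be well above background everywhere, with no filter on dim probes and by the methods' t-test unadjusted, and 0 by that t-test after Benjamini-Hochberg adjustment and with slide as a term. The count ran from 1 to 3 when single arrays were left out, and the 3, without combination replicate 1, included the Wnt5b probe A_52_P85805, which no remaining combination array measured well above background. The 1 probe called against Wnt3a became 0 under normexp, with no filter, with the flag for a positive and significant signal, by the adjusted t-test, with the replicate block and with slide as a term, and 2 in the deposited table and by the unadjusted t-test, with 0 to 2 when single arrays were left out. Without Wnt3a replicate 3 and under quantile normalization it stayed at 1 with the other Wnt9a probe. Under the latter the change of Wnt9a was 0.99 by A_51_P375453, under 2-fold, and 1.51 by A_52_P618971 (limma adjusted p = 0.0402 and 0.0423). For the interaction, 0 became 1 (Wnt4) under quantile normalization, with no fold requirement and with both arrays of the largest shares above background left out, and 0 to 1 when single arrays were left out. The cause of these shifts was not tested, apart from the removal of the dim Wnt9a probe A_52_P618971 where detection on all arrays was required.

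The change of Wnt9a by A_51_P375453 against BSA did not pass in limma with slide as a term (adjusted p = 0.127) or in the adjusted t-test (0.0779), and passed in the other alternatives. Wnt4 against BSA, which was under 2-fold, did not pass under normexp (0.113), in both t-tests (0.0619 and 0.144) and with slide as a term (0.22). The change by A_52_P618971 of Wnt9a did not pass in 9 of 26 alternatives, that of Wnt9a against Wnt3a in 10 of 27, and the interaction of Wnt4 in 14 of 24. With the replicate block, limma gave an adjusted p of 0.0586 for Wnt9a against Wnt3a and 0.0762 for the interaction of Wnt4. It moved no other ligand change across the threshold. The labels do not say whether the replicate numbers pair the samples. Correlations of deviations between arrays of the same number ran from -0.525 to 0.322, and 3 of 12 arrays correlated best with their own number. With so few arrays these values show no pairing and cannot exclude it. Taking the 75th percentile over the probes detected on each of the 12 arrays moved the median of all probes by -0.12 with Wnt3a and by -0.11 with both, and by 0.11 in the interaction. With that shift included, Wnt5b by A_51_P137991 passed in limma against BSA, at -0.82 (adjusted p = 0.0451) for Wnt3a and -0.81 (adjusted p = 0.0417) for the combination, which relative to the shift are the changes already given (-0.70 each). Signal over background limits the 6 dim probes of 5 genes, whose tested signal stayed under 20% of the 75th percentile.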

Other observations

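Of 4 pairs of neighboring Wnt genes in the mouse genome (GRCm38.p6), 2 differed in detection, counted by the probe of each gene detected on the most arrays. Wnt9a, well above background on 12 arrays by A_51_P375453 and on 6 by its other probe, lies 16097 bases from Wnt3a, which was so on 1. Wnt6, detected on 12 arrays by its brighter probe and on 0 by its other probe, lies 6696 bases from Wnt10a, detected on 0. By that other probe of Wnt6 this pair did not differ. In the other pairs, Wnt10b with Wnt1 and Wnt9b with Wnt3, both genes were detected on 0 arrays. In each pair no protein-coding gene lies between.

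Of the 6 dim probes, replicate 1 of the combination gave the highest signal of its group in 6, and BSA replicate 1 that of its group in 4. These arrays had the largest shares of probes well above background, 61.75% and 64.17%. The part of this in the values of Wnt5b, Wnt6, Wnt7b, Wnt11 and Wnt9a (A_52_P618971) was not tested, beyond leaving out the arrays.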
